A study of Mus musculus with 8 samples.

Results

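The nuclear encoded subunits of the mitochondrial respiratory chain were examined in CD8+ T cells sorted from tumours of Pglyrp1 knockout (KO) and wild-type (WT) mice. Members were chosen by gene symbol alone: names that begin with Nduf and a subunit letter and number (complex I), Sdha to Sdhd (complex II), Uqcr (complex III), Cox4 to Cox8 with an isoform letter (complex IV) and Atp5 (complex V). The rule took 84 of the 20029 genes in the deposited table, 37 for complex I, 4 for complex II, 8 for complex III, 18 for complex IV and 17 for complex V. The KO mice carried the Pglyrp1tm1.1Lky allele (strain B6.129S4-Pglyrp1tm1.1Lky/J, n = 4, libraries 1 to 4) and the WT mice were C57BL/6J (n = 4, libraries 6 to 9). All 8 mice bore subcutaneous MC38-OVA tumours, grown from a mouse colon cancer line that carries ovalbumin as a model antigen. Each library came from 1000 living CD45+ TCRβ+ CD8+ cells and a modified SMART-Seq2 preparation, which makes full-length cDNA. The sources used here do not give the age of the mice or say whether KO and WT mice were littermates. The comparison addresses how CD8+ T cells in tumours differ when Pglyrp1, a peptidoglycan-binding protein released by immune cells, is missing.

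The respiratory chain sits in the inner mitochondrial membrane. Complex I takes electrons from NADH and complex II takes them from succinate. Both pass them to ubiquinone, complex III hands them on to cytochrome c, and complex IV gives them to oxygen. Complexes I, III and IV pump protons, and complex V, the ATP synthase, lets the protons back and makes ATP. A few catalytic subunits are encoded by mitochondrial DNA. The table held 0 symbols with the prefix mt-, and other spellings were not searched for. The nuclear part alone is described. Activated and memory CD8+ T cells rely on this chain to different degrees, and loss of mitochondrial function is a known feature of exhausted T cells in tumours.

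Pglyrp1 was listed at 0 TPM in all 4 KO libraries, against 123, 210, 208 and 153 TPM in WT libraries 6 to 9. TPM here means the deposited value after the values of each library were brought to a sum of 1000000. Deposited sums ran from 2223162 to 3342847 per library, read counts were not at hand, and the depth is therefore unknown. Of 12 T cell identity genes listed, 9 were in the table and measured, Cd3e and Cd8a among them. They summed to 6005 to 6894 TPM in KO cells and 6217 to 8375 TPM in WT cells. Of the 9, 2 had a positive and 7 a negative fold change (median -0.12). KO libraries 3 and 4 also stood apart in macrophage and myeloid genes, 19 of the 20 listed being in the table and 13 of the 14 measured having a positive fold change. These summed to 733, 729, 9366 and 11780 TPM in KO libraries 1 to 4, against 458, 677, 553 and 1806 TPM in WT libraries 6 to 9. Csf1r, the defining receptor of macrophages, was at 0 in WT libraries 6 and 8 and above 0 in the other 6 libraries. Of the 13 genes listed for natural killer cells, 13 had a positive fold change, where 55.2% of all genes tested did. They summed to 4614, 5180, 7341 and 7563 TPM in KO libraries 1 to 4. In WT libraries 6 to 9 they summed to 2446, 4862, 5952 and 2489 TPM. Nkg7 was most of that sum in every library. It had 3618, 4244, 4320 and 4174 TPM in KO libraries 1 to 4, against 2074, 4145, 4800 and 2180 TPM in WT libraries 6 to 9. Tyrobp and Fcer1g had 1280 and 996 TPM in KO library 3 and 1291 and 1314 TPM in KO library 4. They were at 84.95 TPM or less in the other libraries. Ncr1, also on this list, was low, with 2.079, 0.9069, 5.983 and 7.996 TPM in KO libraries 1 to 4. In WT libraries 6 to 9 it had 0, 0.4498, 0 and 1.18 TPM. The list sum is therefore not read as a measure of natural killer cells. The part of the transcripts on the myeloid and natural killer cell lists in the results was not tested. In sorted bulk cells fewer cells of a type and less RNA per cell cannot be told apart.

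Promoters of 5 members are shown because these genes recur in the results. Ndufs6 and Ndufa3 are complex I subunits whose KO libraries lay, without overlap, above the WT libraries for the first and below them for the other, Cox8a and Atp5g2 are abundant subunits, and Cox7a1 is a muscle-type isoform at 0 in every WT library. Each is the window in GRCm38.p6 from 250 bases before to 50 bases after the start that RefSeq gives the gene, 5′ to 3′ on the gene's strand. For Atp5g2 that start lies 1305 bases downstream of the gene's 5′ end in the mm10 annotation used for coordinates, so its window is inside the gene there. For the other 4 it lies 0 to 60 bases downstream. Capitals mark the letters searched, on either strand: GCATGCGC (the core of the NRF1 motif), AAGATGGC (YY1), CCGGAAG (ETS family) and CCAAT (NF-Y).
Ndufs6 (chr13:73328433-73328732, minus strand): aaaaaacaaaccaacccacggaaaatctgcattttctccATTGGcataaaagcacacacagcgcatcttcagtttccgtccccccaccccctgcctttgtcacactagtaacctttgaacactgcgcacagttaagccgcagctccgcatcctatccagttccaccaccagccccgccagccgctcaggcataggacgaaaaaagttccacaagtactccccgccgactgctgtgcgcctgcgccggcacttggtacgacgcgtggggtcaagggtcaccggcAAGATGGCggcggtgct
Ndufa3 (chr7:3617123-3617422, plus strand): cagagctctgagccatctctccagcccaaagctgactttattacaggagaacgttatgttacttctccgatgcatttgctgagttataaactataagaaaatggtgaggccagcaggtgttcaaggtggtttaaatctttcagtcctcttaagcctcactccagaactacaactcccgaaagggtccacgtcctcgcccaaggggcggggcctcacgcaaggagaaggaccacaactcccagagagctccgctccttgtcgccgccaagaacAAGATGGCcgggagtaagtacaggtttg
Cox8a (chr19:7217567-7217866, minus strand): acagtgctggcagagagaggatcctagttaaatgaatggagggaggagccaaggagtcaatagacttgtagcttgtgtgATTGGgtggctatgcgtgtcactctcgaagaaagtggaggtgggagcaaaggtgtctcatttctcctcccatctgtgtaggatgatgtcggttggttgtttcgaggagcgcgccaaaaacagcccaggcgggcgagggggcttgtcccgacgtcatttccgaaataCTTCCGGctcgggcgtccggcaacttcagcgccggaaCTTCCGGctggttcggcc
Atp5g2 (chr15:102670998-102671297, minus strand): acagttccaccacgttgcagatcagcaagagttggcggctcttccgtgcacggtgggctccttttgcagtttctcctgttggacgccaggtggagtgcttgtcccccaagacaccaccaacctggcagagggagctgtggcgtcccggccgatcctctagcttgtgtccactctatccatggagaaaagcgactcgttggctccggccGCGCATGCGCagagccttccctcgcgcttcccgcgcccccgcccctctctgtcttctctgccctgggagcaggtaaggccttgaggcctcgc
Cox7a1 (chr7:30183921-30184220, plus strand): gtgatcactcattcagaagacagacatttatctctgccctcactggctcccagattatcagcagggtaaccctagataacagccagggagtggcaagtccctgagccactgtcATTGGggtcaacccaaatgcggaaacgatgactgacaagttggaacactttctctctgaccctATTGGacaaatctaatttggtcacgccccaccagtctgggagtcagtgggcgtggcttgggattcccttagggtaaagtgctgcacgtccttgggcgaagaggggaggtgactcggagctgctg
Ndufs6 and Ndufa3 both held the YY1 letters downstream of the start, the first base at position 34 in Ndufs6 and at position 23 in Ndufa3, counting the start as 1. Cox8a held the ETS letters at 2 places, Atp5g2 held the NRF1 letters upstream of the RefSeq start, on both strands of 1 overlapping run, and Cox7a1 held only the CCAAT letters, in reverse at 2 places. Of the 84 members, 66 matched a RefSeq promoter. The YY1 letters were in 9 of these 66 (13.6%), against 5.82% of 8021 tested genes with a window and 3.19% of all 27025. The NRF1 letters were in 10 of 66 (15.2%), against 6.54% of tested genes and 3.05% of all. The ETS letters were in 16 of 66 (24.2%), against 22.5% of tested genes and 9.93% of all. The CCAAT letters were in 29 of 66 (43.9%), against 43.8% and 41.1%, and TATAAA, which is not in capitals, was in 7 of 66 (10.6%), against 8.34% and 15.7%. Matches of different motifs overlapped in 0 cases. A match is a run of letters and not a shown binding site.

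Of the 84 members, 78 were measured, that is, at 1 TPM or more in at least 4 libraries, as were 10732 genes in all. The other 6 were Cox4i2, Cox7a1, Cox7b2, Cox8b, Cox8c and Ndufa4l2. The subunits were abundant transcripts in both groups: their mean over the 8 libraries had a median of 294.2 TPM, against 14.8 TPM over all genes tested, and 69 of them were at 100 TPM or more. No subunit passed the all-gene threshold (limma, adjusted p under 0.05), which 0.028% of all genes passed, 0.0186% higher and 0.00932% lower in KO cells. The smallest adjusted p was 0.395, for Uqcrb. At an unadjusted p under 0.05 in the same limma fit, 5 subunits were higher in KO cells (Uqcrb, Ndufs6, Cox7c, Sdhd and Cox6a2) and 2 were lower (Ndufa3 and Cox7a2l), where 6.01% and 3.07% of all genes were. Every KO library lay above every WT library for 4 subunits (Uqcrb, Ndufs6, Cox7c and Ndufv2), and below for 2 (Ndufa3 and Cox7a2l), where the shares of all genes were 2.62% and 2.4%. In mm10 these lie at chr13:66900617-66905378 (Uqcrb), chr13:73319838-73328542 (Ndufs6), chr13:86044816-86046904 (Cox7c), chr17:66078638-66101559 (Ndufv2), chr7:3617373-3620327 (Ndufa3) and chr17:83501918-83517330 (Cox7a2l). The log2 fold change was above 0 for 68 of the 78 measured (87.2%), against 55.2% of all genes, with a median of 0.16 against 0.04. The count above 0 moved with scaling, which moves all genes: it was 62 of 78 with median-ratio scaling, 61 with the myeloid markers in the model, 37 with quantile normalization and 43 when the genes of ribosomal proteins and the 20 most abundant genes were taken out before rescaling. In the last 2 settings 43.3% and 41.3% of all genes were above 0. The subunits' median less the median of all genes was 0.11 with all libraries rescaled alike, and it ran from 0.042 with quantile normalization to 0.15 with the myeloid markers in the model over the 21 other settings.

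**Figure D1:**
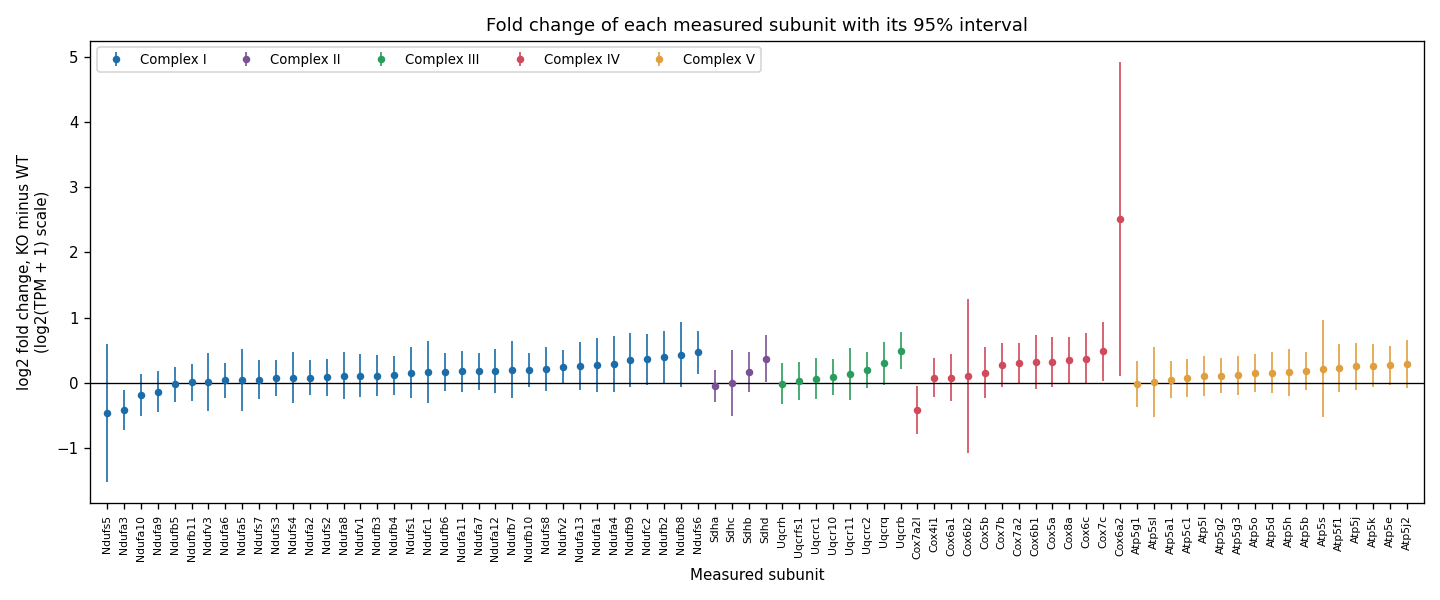
Log2 fold change of each of the 78 measured subunits (KO minus WT, y axis, on the log2(TPM + 1) scale) with its 95% interval from the limma fit, ordered within complexes I to V along the x axis. Most points lie slightly above 0 and 10 lie below it. Ndufs5 is the lowest (-0.47, interval -1.53 to 0.60), followed by Cox7a2l and Ndufa3 (both -0.42). Cox6a2 lies far above with the widest interval.

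Complex I had 36 measured subunits, 31 with a positive and 5 with a negative fold change (median 0.13), and none passed the threshold. Its core subunits, which hold the NADH site and most iron-sulfur clusters, leaned the same way by little: 7 of 7 were above 0, with a median of 0.11. Ndufv2, a core subunit that carries an iron-sulfur cluster, had 135, 149, 135 and 148 TPM in KO libraries 1 to 4, against 110.1, 126, 128 and 114 TPM in WT libraries 6 to 9. The 4 KO libraries were all above the 4 WT libraries, by a narrow margin (log2 fold change 0.24, SE 0.11, limma adjusted p = 0.566). Of the accessory subunits, which surround the core and support its assembly and stability, 23 of 28 were above 0, with a median of 0.14.

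Ndufs6, an accessory subunit with a zinc site and the one shown above with the YY1 letters, had 156, 155, 175 and 193 TPM in KO libraries 1 to 4, against 116, 113, 154 and 111 TPM in WT libraries 6 to 9. WT library 8 came close to the lowest KO library and the other WT libraries lay well below (log2 fold change 0.47, SE 0.15, limma adjusted p = 0.449). Ndufb2, a small accessory subunit of the membrane arm, had 158, 159, 138 and 186 TPM in KO libraries 1 to 4, against 162, 93.1, 124 and 115 TPM in WT libraries 6 to 9. Its groups overlapped because WT library 6 was above KO libraries 1 to 3 (log2 fold change 0.40, SE 0.18, limma adjusted p = 0.553). Ndufa3, a small accessory subunit whose promoter holds the same YY1 letters, went the other way, with 516, 534, 616 and 566 TPM in KO libraries 1 to 4, against 682, 781, 895 and 653 TPM in WT libraries 6 to 9. Every KO library was below every WT library (log2 fold change -0.42, SE 0.14, limma adjusted p = 0.472). Ndufa4 had 731 ± 71 TPM in KO cells and 612 ± 142 TPM in WT cells (SD, n = 4 each). By mean it was above Ndufa3 in KO cells and below it in WT cells. In WT libraries 6 and 9, though, Ndufa4 was above Ndufa3, at 737 and 677 TPM against 682 and 653 TPM. It is now known as a complex IV subunit despite its name, and its groups overlapped, with WT library 7 lowest at 409.8 TPM (log2 fold change 0.29, SE 0.19, limma adjusted p = 0.67). Without WT library 7 its log2 fold change was 0.10. Its isoform Ndufa4l2, which is induced by low oxygen in other cells, was listed at 0 in all 8 libraries.

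Complex II, which also works in the citric acid cycle, split evenly, with 2 of its 4 subunits above 0 and 2 below. Sdhd, the small membrane anchor, had 129, 122, 111 and 156 TPM in KO libraries 1 to 4, against 89.8, 112, 118 and 83.4 TPM in WT libraries 6 to 9. WT libraries 6 and 9 were the lowest and WT libraries 7 and 8 lay among the KO values (log2 fold change 0.37, SE 0.16, limma adjusted p = 0.541). Sdhb, the iron-sulfur subunit, had 331 ± 28.96 TPM in KO cells and 296 ± 40.7 TPM in WT cells (SD, n = 4 each). Sdha, the flavoprotein that oxidises succinate, had 175 ± 10.9 TPM in KO cells and 181 ± 10.2 TPM in WT cells (SD, n = 4 each), with a log2 fold change of -0.05. The groups overlapped for both.

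Complex III gave the subunit with the smallest p. Uqcrb, a small subunit that contributes to ubiquinone binding, had 315, 348, 425 and 361 TPM in KO libraries 1 to 4, against 266, 241, 256 and 259 TPM in WT libraries 6 to 9. The lowest KO library stood above the highest WT library, and the WT libraries lay close together (log2 fold change 0.49, SE 0.13, limma adjusted p = 0.395, 95% interval 0.21 to 0.77). The exact permutation p was 0.0286, the smallest the 8 libraries allow. Any gene whose groups do not overlap has this p, so it adds nothing to the lack of overlap. The group means of Uqcrb were 362 ± 46.3 TPM in KO cells and 256 ± 10.6 TPM in WT cells (SD, n = 4 each). Uqcrq, another small subunit, had 438, 359, 479.5 and 415 TPM in KO libraries 1 to 4, against 319, 389, 378 and 292 TPM in WT libraries 6 to 9. Its groups overlapped (log2 fold change 0.30, SE 0.14, limma adjusted p = 0.573), with KO library 2 below WT libraries 7 and 8. The core subunits Uqcrc1, Uqcrc2 and Uqcrfs1, the last being the Rieske iron-sulfur protein, were all above 0 with a median of 0.06. Uqcrc2 had the largest fold change among the 3, at 133 ± 14.6 TPM in KO cells and 115 ± 5.46 TPM in WT cells (SD, n = 4 each; log2 fold change 0.20, SE 0.12, limma adjusted p = 0.651). Uqcrh, the hinge protein that helps dock cytochrome c, was the most abundant at 1020 ± 83.2 TPM in KO cells and 1036 ± 136 TPM in WT cells (SD, n = 4 each), with a log2 fold change of -0.02. Uqcr11, a small peripheral subunit, had 417 ± 84.2 TPM in KO cells and 379.5 ± 68.4 TPM in WT cells (SD, n = 4 each), KO library 4 alone reaching 542 TPM.

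Complex IV had the largest median of the 5 complexes when all libraries were rescaled alike, with 12 of 13 measured subunits above 0 and a median of 0.31. All 10 of the widely expressed subunits were above 0. Cox7c, a small membrane-spanning subunit, had 456, 533, 514 and 501 TPM in KO libraries 1 to 4, against 229.6, 424, 435 and 386 TPM in WT libraries 6 to 9. WT library 6 was far below the rest, and the highest WT library stood below the lowest KO library (log2 fold change 0.48, SE 0.20, limma adjusted p = 0.527). Without WT library 6 the log2 fold change of Cox7c was 0.27. Cox8a, the small subunit with ETS letters in the promoter shown above, had 1127, 1192, 1236 and 1180 TPM in KO libraries 1 to 4, against 755, 1014, 1185 and 822 TPM in WT libraries 6 to 9. WT library 8 was within the KO range while WT libraries 6 and 9 were low, so the groups overlapped (log2 fold change 0.35, SE 0.16, limma adjusted p = 0.56). Cox4i1, through which ATP is known to regulate the complex, was the most abundant subunit of all at 1534 ± 54.2 TPM in KO cells and 1465 ± 179.9 TPM in WT cells (SD, n = 4 each), with a log2 fold change of 0.07 that turned negative under quantile normalization (-0.02) and in 3 other settings. Cox6b1, at 867 ± 71.6 TPM in KO cells and 711 ± 183 TPM in WT cells (SD, n = 4 each), and Cox6a1, at 635 ± 76.8 TPM in KO cells and 605 ± 109 TPM in WT cells (SD, n = 4 each), likewise overlapped.

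Cox7a2l, also called SCAF1, is described as linking complexes III and IV into supercomplexes. Supercomplexes were not measured, nor was it examined whether Cox7a2l forms them in the strains used. Cox7a2l was the complex IV symbol below 0. It had 673, 641, 474 and 466 TPM in KO libraries 1 to 4, against 785, 688, 678 and 846 TPM in WT libraries 6 to 9. Both KO libraries 3 and 4 were low, KO libraries 1 and 2 were just under the lowest WT library, and the groups did not overlap (log2 fold change -0.42, SE 0.16, limma adjusted p = 0.502). Cox7a2, its relative within complex IV, ran the other way, with 353, 398, 425 and 497 TPM in KO libraries 1 to 4, against 302, 338, 369 and 335 TPM in WT libraries 6 to 9. Here the groups overlapped only through KO library 1, which lay below WT library 8 (log2 fold change 0.31, SE 0.14, limma adjusted p = 0.55). The ratio of Cox7a2 to Cox7a2l in TPM was 0.524, 0.621, 0.895 and 1.07 in KO libraries 1 to 4, against 0.385, 0.491, 0.544 and 0.396 in WT libraries 6 to 9. A ratio within a library does not depend on its scaling, and KO libraries 3 and 4, those with the highest myeloid sums, had the highest ratios. The part of the myeloid transcripts in that ratio was not tested. The log2 fold change of Cox7a2l was -0.22 with the mean of the myeloid markers in the model, -0.18 without KO libraries 3 and 4, and -0.06 without both these and WT libraries 6 and 9.

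**Figure D2:**
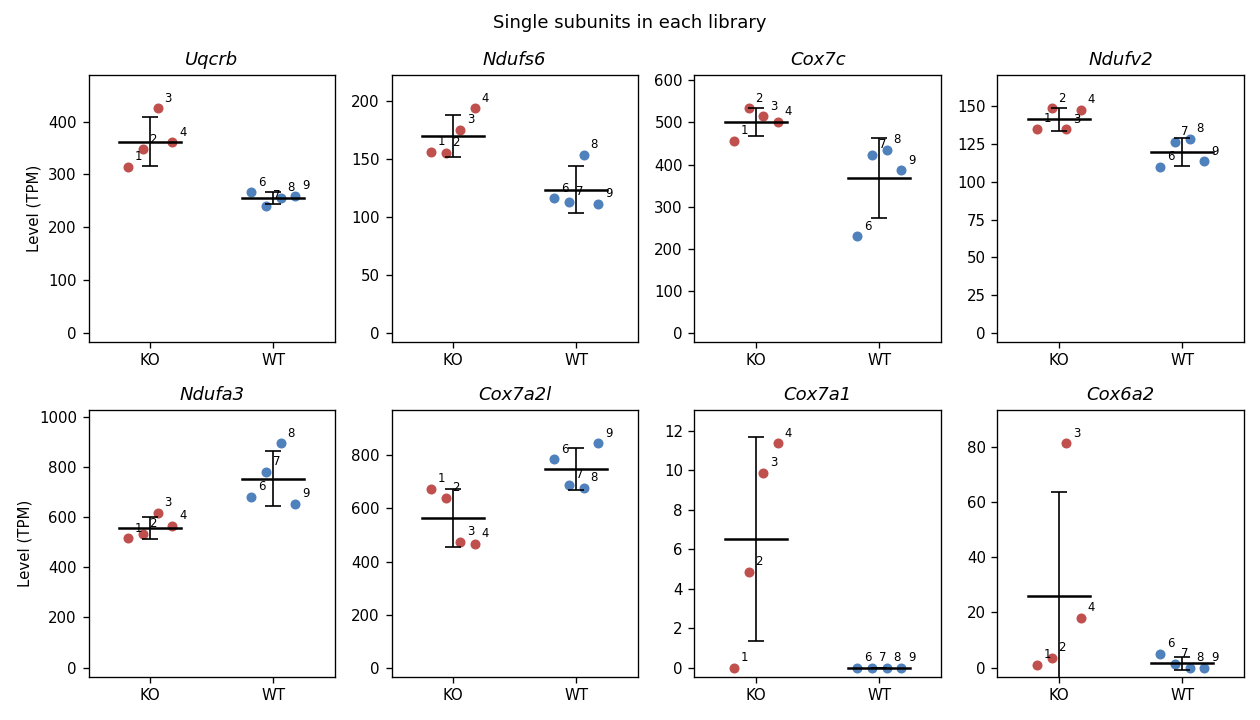
Level in TPM (y axes, each from its own 0) of 8 subunits in each library, KO left and WT right, with libraries numbered. Lines are group means and bars are SDs (n = 4 each, the lower bar of Cox6a2 running past 0). Uqcrb, Ndufs6, Cox7c and Ndufv2 have KO above WT without overlap, Ndufa3 and Cox7a2l the reverse, and Cox7a1 is at 0 in the 4 WT libraries.

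Tissue isoforms of complex IV were scarce. Cox4i2, Cox8b and Cox8c were listed at 0 in all 8 libraries, and Cox7b2 was above 0 only in KO library 4 (5.05 TPM). Cox6b2, the testis form, averaged 1.58 TPM over all libraries. Cox6a2, known as the heart and muscle form of Cox6a1 and in mouse also as a transcript of plasmacytoid dendritic cells, had 1.04, 3.63, 81.4 and 18.1 TPM in KO libraries 1 to 4, against 4.88, 1.35, 0 and 0 TPM in WT libraries 6 to 9. KO library 3 held most of it and the groups overlapped (log2 fold change 2.52, SE 1.07, limma adjusted p = 0.53). The log2 fold change was 1.55 without KO library 3, 0.99 with the myeloid markers in the model and 0.67 without KO libraries 3 and 4. Genes of plasmacytoid dendritic cells, a list chosen after the data were seen, were highest in the same library: they summed to 348, 429, 2278 and 921 TPM in KO libraries 1 to 4, against 455, 496, 632 and 305 TPM in WT libraries 6 to 9. Bst2 was most of that sum outside KO libraries 3 and 4. It had 285, 265, 776 and 415 TPM in KO libraries 1 to 4, against 294, 441, 576.5 and 205 TPM in WT libraries 6 to 9. The list sums of KO libraries 1 and 2 lay within the WT range. Of the 9 plasmacytoid dendritic cell genes 8 were measured and 8 were above 0 in fold change (median 1.49), where 55.2% of all genes were. Siglech, their defining surface receptor, had 0, 9.67, 223.5 and 47.1 TPM in KO libraries 1 to 4, against 26.4, 3.15, 3.82 and 0 TPM in WT libraries 6 to 9. Skeletal muscle genes, also listed afterwards, had 5 of 7 members at 0 in all libraries and summed to at most 2.78 TPM in any library. The part of either cell type in the Cox6a2 level was not tested.

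**Figure D3:**
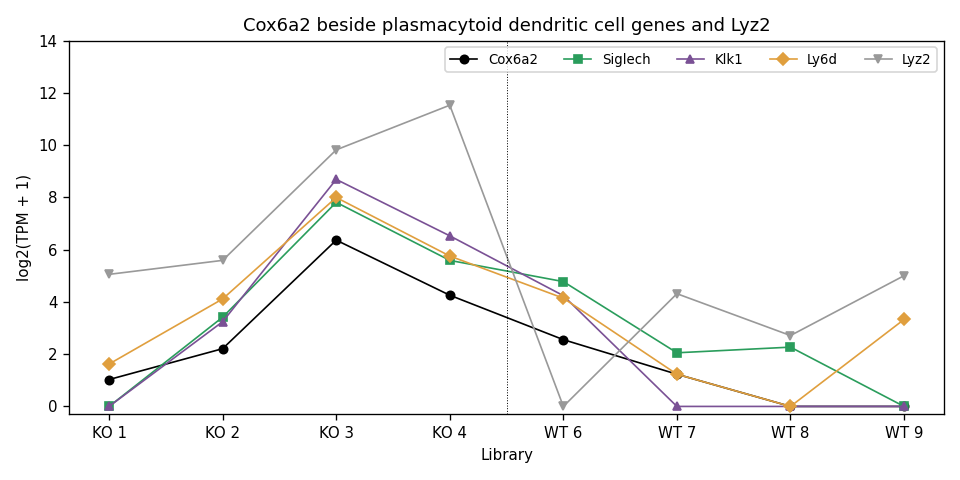
Cox6a2 beside the plasmacytoid dendritic cell genes Siglech, Klk1 and Ly6d and the myeloid gene Lyz2 in each library (x axis, KO libraries left of the dotted line and WT right), as log2(TPM + 1). Cox6a2, Siglech, Klk1 and Ly6d all peak in KO library 3, at 81.4 TPM for Cox6a2, whereas Lyz2 is highest in KO library 4.

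Cox7a1, the muscle form of Cox7a2, had 0, 4.84, 9.87 and 11.4 TPM in KO libraries 1 to 4, against 0, 0, 0 and 0 TPM in WT libraries 6 to 9. KO library 1 was at 0 like all WT libraries, so the gene reached 1 TPM in 3 libraries and was not tested with all 8 libraries in limma (exact permutation p = 0.143). Every setting that tested it admitted it through KO libraries alone, so its limma p is not a test of the gene against a detectable WT level. That p was under the threshold only when KO library 1, the KO library at 0, was left out (adjusted p = 0.0262), and it was 0.389 to 0.732 in the other settings. The gene lies 11.3 Mb from Pglyrp1 on chromosome 7 (30184144 to 30186078, mm10). Other members on that chromosome were Cox6b1 at 11.7 Mb, Cox6b2 at 14.1 Mb and Ndufa3 at 15.3 Mb from Pglyrp1 (log2 fold changes 0.32, 0.10 and -0.42), beside 4 that lie farther away.

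Complex V was even across its parts, with 16 of 17 subunits above 0 and a median of 0.16, and 0 subunits had an unadjusted limma p under 0.05. The catalytic F1 head (Atp5a1, Atp5b, Atp5c1, Atp5d and Atp5e) had 5 of 5 above 0 with a median of 0.16. Atp5e, the epsilon subunit of the central stalk, had 706, 853, 908 and 700.3 TPM in KO libraries 1 to 4, against 708, 594, 655 and 666 TPM in WT libraries 6 to 9. KO libraries 1 and 4 lay at the level of the highest WT library, and KO libraries 2 and 3 above it (log2 fold change 0.27, SE 0.14, limma adjusted p = 0.587). The peripheral stalk, which holds the head still, had 4 of 4 above 0, with a median of 0.19. Atp5h, its subunit d and the most abundant complex V gene, had 858 ± 54.97 TPM in KO cells and 779.5 ± 155 TPM in WT cells (SD, n = 4 each; log2 fold change 0.16, SE 0.16, limma adjusted p = 0.79). The small membrane subunits Atp5j2, Atp5k and Atp5l, which help the synthase form dimers, had 3 of 3 above 0 with a median of 0.26. Atp5j2 had 525, 536, 583 and 641 TPM in KO libraries 1 to 4, against 365, 561, 552 and 422 TPM in WT libraries 6 to 9. WT libraries 6 and 9 were low and WT libraries 7 and 8 fell inside the KO range (log2 fold change 0.28, SE 0.17, limma adjusted p = 0.635). Atp5k had 325 ± 42.9 TPM in KO cells and 271 ± 36.3 TPM in WT cells (SD, n = 4 each) and Atp5l had 781 ± 43.1 TPM in KO cells and 734 ± 103 TPM in WT cells (SD, n = 4 each), both with overlapping groups. Atp5k, Atp5l, Atp5c1 and Uqcrh have pseudogenes annotated in mm10 under their own symbol with the ending -ps, 6 in all. Pseudogenes of any member under other names were not searched for. Reads shared with such copies may move the values.

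The rotor ring is built from copies of a c subunit that Atp5g1, Atp5g2 and Atp5g3 encode with different import signals and the same mature protein. Atp5g2 supplied the most transcript, 45.5% to 52.3% of the 3 genes' TPM in KO cells and 46.3% to 52.2% in WT cells. Atp5g3 gave 31.0% to 35.5% in KO cells and 28.6% to 36.1% in WT cells, and Atp5g1, the form known to vary with demand, 16.4% to 18.9% in KO cells and 15.8% to 22.4% in WT cells. The ranges of all 3 overlapped, and Atp5g1 was the complex V gene with a negative fold change (-0.02, 95% interval -0.38 to 0.33). Atp5s and Atp5sl, which carry the prefix but are coupling and assembly factors, averaged 3.05 and 18.7 TPM.

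Summed over all members, the subunits made up 2.66%, 2.86%, 2.84% and 3.06% of KO libraries 1 to 4, against 2.39%, 2.74%, 2.83% and 2.38% of WT libraries 6 to 9. WT libraries 7 and 8 were inside the KO range and WT libraries 6 and 9 were below it. The KO mean over the WT mean was 1.11 for all members, 1.08 for complex I, 1.09 for complex II, 1.09 for complex III, 1.13 for complex IV and 1.11 for complex V. Complex I summed to 8189 to 9604 TPM in KO cells and 7588 to 8690 TPM in WT cells, and complex IV to 7146 to 8248 TPM in KO cells and 6126 to 8041 TPM in WT cells. The share of the members' total held by each complex was close in both groups: complex IV took 27.7% ± 0.922 in KO cells and 26.9% ± 1.25 in WT cells (SD, n = 4 each), and complex I took 30.4% ± 0.792 in KO cells and 31.2% ± 0.860 in WT cells.

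**Figure D4:**
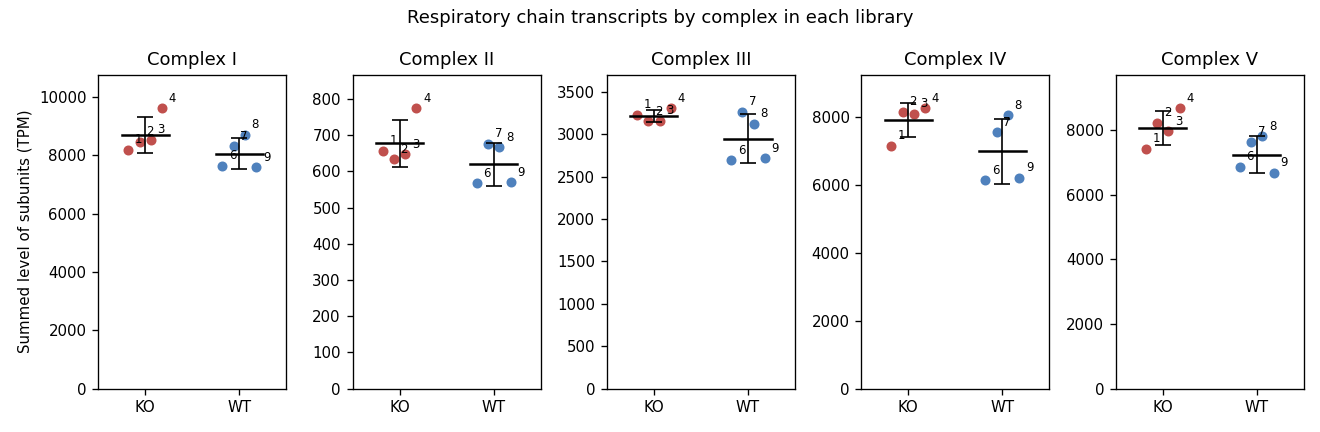
Summed TPM of the subunits of complexes I to V (1 panel each, y axes from 0) in each numbered library, KO left and WT right, with group means and SDs (n = 4 each). WT libraries 6 and 9 are the lowest in each panel and WT libraries 7 and 8 lie within or near the KO values.

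Those low WT libraries recur across single subunits. WT libraries 6 and 9 were the 2 lowest of all 8 for 34 of the 78 measured subunits, against 17.3% of all genes tested, and KO library 4 was the highest for 38, against 21.1%. Ribosomal protein genes (86 symbols) filled 29.8%, 28.1%, 22.2% and 20.4% of KO libraries 1 to 4, against 36.8%, 23.0%, 22.7% and 36.4% of WT libraries 6 to 9. WT libraries 6 and 9 had the largest ribosomal shares and the smallest respiratory chain shares. With those genes and the 20 most abundant genes taken out before rescaling, the members summed to 45190, 46740, 42280 and 44350 TPM in KO libraries 1 to 4, against 46250, 41550, 42880 and 46230 TPM in WT libraries 6 to 9, and the group ranges overlapped throughout. Without WT libraries 6 and 9, 51 of 79 members were above 0 (median 0.05), and without those and KO libraries 3 and 4, 40 of 78 were, where the median of all genes was -0.11. Uqcrb, Ndufs6, Cox7c and Ndufv2 were above 0 and Ndufa3 and Cox7a2l below 0 with all 8 libraries and in each of the 21 other settings. Their groups did not overlap, so leaving out libraries or changing the pseudocount, filter or limma options could not turn these signs. Only the scaling settings and the myeloid covariate could have. Over the 21 other settings the log2 fold change was 0.30 to 0.56 for Uqcrb, 0.24 to 0.57 for Ndufs6, 0.20 to 0.58 for Cox7c, 0.11 to 0.28 for Ndufv2, -0.67 to -0.34 for Ndufa3 and -0.64 to -0.06 for Cox7a2l.

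**Figure D5:**
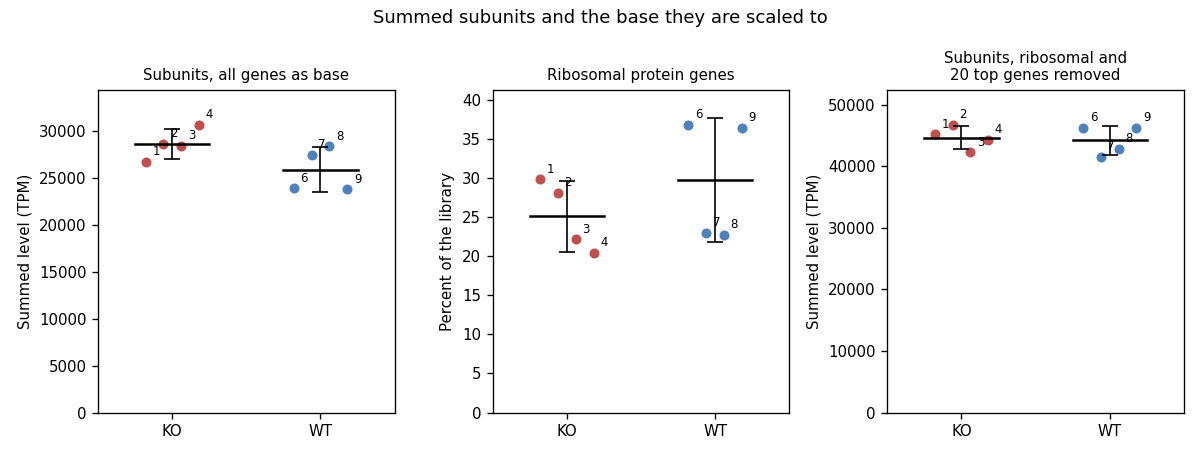
Left, summed TPM of the members; middle, percent of the library in 86 ribosomal protein genes; right, summed TPM of the members after removal of the ribosomal and the 20 most abundant genes. Points are numbered libraries, KO left and WT right, with means and SDs (n = 4 each). WT libraries 6 and 9 are low at left, high in the middle and among the highest at right.

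Genes that serve the chain were read from 6 lists, and 0 of their measured members passed the limma threshold. The list counts are from the fit with all libraries rescaled alike, where 55.2% of all genes were above 0. The groups did not overlap for 2.62% of all genes higher and 2.4% lower in KO cells. Electron carriers and the ubiquinone pathway had 11 of 14 above 0 (median 0.13). Cycs, which encodes the cytochrome c that runs between complexes III and IV, had 53.02, 68.9, 76.3 and 81.2 TPM in KO libraries 1 to 4, against 36.6, 53.98, 59.7 and 49.95 TPM in WT libraries 6 to 9. Its groups overlapped (log2 fold change 0.48, SE 0.19, limma adjusted p = 0.525). Coq3, a methyltransferase of ubiquinone synthesis, was low at 5.903 ± 3.32 TPM in KO cells and 2.997 ± 0.542 TPM in WT cells (SD, n = 4 each). Assembly factors had 23 of 37 above 0 (median 0.06), with 2 of 37 higher and 1 of 37 lower at an unadjusted limma p under 0.05, where 6.01% and 3.07% of all genes were. Cox17, the copper chaperone of complex IV, had 331, 455, 554 and 529 TPM in KO libraries 1 to 4, against 202, 319, 361 and 304 TPM in WT libraries 6 to 9. Only KO library 1 fell within the WT range (log2 fold change 0.66, SE 0.22, limma adjusted p = 0.472). Cox10, an enzyme in the synthesis of the haem of complex IV, had 13.9, 15.1, 11.97 and 15.6 TPM in KO libraries 1 to 4, against 17.9, 22.5, 22.9 and 19.3 TPM in WT libraries 6 to 9. All KO libraries were below all WT libraries (log2 fold change -0.52, SE 0.17, limma adjusted p = 0.468).

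The citric acid cycle list had 11 of 17 above 0 (median 0.04). Fh1, fumarase, had 49.2, 52.3, 73.9 and 108 TPM in KO libraries 1 to 4, against 41.05, 57.1, 46.5 and 49.95 TPM in WT libraries 6 to 9. KO libraries 3 and 4, with the highest myeloid sums, were the highest, and its log2 fold change of 0.47 was 0.05 with the myeloid markers in the model. Idh3a, a subunit of isocitrate dehydrogenase, had 77.1 ± 12.7 TPM in KO cells and 62.5 ± 9.93 TPM in WT cells (SD, n = 4 each). Nuclear regulators of mitochondrial genes had 6 of 14 above 0 (median -0.02). Yy1, the factor whose letters are marked in the Ndufs6 and Ndufa3 promoters, had 3.12, 3.33, 3.89 and 3.79 TPM in KO libraries 1 to 4, against 1.63, 2.25, 2.78 and 3.15 TPM in WT libraries 6 to 9. The level was low in every library and KO library 1 lay just under WT library 9 (log2 fold change 0.41, SE 0.24, limma adjusted p = 0.637). Polrmt, the mitochondrial RNA polymerase, had 14.7 ± 4.8 TPM in KO cells and 21.7 ± 7.13 TPM in WT cells (SD, n = 4 each). Carriers and coupling proteins had 11 of 11 above 0 (median 0.13), though the groups of Atpif1, the inhibitor of the ATP synthase, overlapped and those of Vdac2, an outer membrane channel, did not. Atpif1 had 240.4 ± 62.1 TPM in KO cells and 178 ± 38.7 TPM in WT cells (SD, n = 4 each) and Vdac2 had 189.5 ± 10.8 TPM in KO cells and 163 ± 17.2 TPM in WT cells (SD, n = 4 each). The import list had 18 of 22 above 0 (median 0.10), against 55.2% of all genes, with 3 of 22 higher at an unadjusted limma p under 0.05, where 6.01% of all genes were. Timm17a, a subunit of the inner membrane translocase, had 88.02, 87.1, 88.2 and 98.5 TPM in KO libraries 1 to 4, against 74.8, 68.4, 65.98 and 77.1 TPM in WT libraries 6 to 9. Every KO library was above every WT library (log2 fold change 0.33, SE 0.12, limma adjusted p = 0.488). Timm8b, an intermembrane chaperone, had 114 ± 16.9 TPM in KO cells and 82.3 ± 8.17 TPM in WT cells (SD, n = 4 each), with KO library 3 inside the WT range (log2 fold change 0.46, SE 0.15, limma adjusted p = 0.465).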

How the data were processed

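RNA was sequenced as paired reads of 38 bases. The authors' deposited table holds a score per gene symbol and library, labelled a TPM-normalized count. The values are whole numbers that do not sum to 1000000 per library. How they relate to raw counts is not given. The submitters' processing notes name RSEM 1.3.3 and mm10; the sources used here do not give the aligner, annotation or scaling step. The design had foreseen TPM values, so every library was scaled to sum to 1000000 and the log-scale test retained. Genes at 1 TPM or more in at least 4 libraries were tested with limma 3.58.1 in R 4.3.3 on log2(TPM + 1), which understates the change of low genes (moderated variances with a trend on mean level, genotype alone in the model, Benjamini-Hochberg over all genes at 0.05). Where libraries were left out, the minimum was the number in the smaller group, a rule settled after values had been seen. Single values were compared by two-sided exact permutation over 70 assignments. Each library is 1 mouse per the series' design text. Depth is unknown, so no counting intervals are given. The fit was tested on simulated data with independent noise for each gene and planted changes larger than those of nearly all subunits. That test does not bear on changes as small as theirs or on genes that move together. Other steps used numpy 2.4.6 and pandas 2.3.3 under Python 3.11.15, and matplotlib 3.10.9. Coordinates are those of the mm10 annotation.

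Members and lists were chosen with earlier results of these data known. The plasmacytoid and muscle lists, the motifs and the promoters shown were chosen after values had been seen. The NRF1 motif was shortened after a longer form had been counted, and more members hold the shorter one. Named subunits are, per complex, the 3 of smallest limma p and the 2 of highest mean TPM, plus members with a paralogous isoform and, per list, the 2 genes of smallest p. Ndufs5, Ndufv2, Uqcrc1, Uqcrfs1, Cox7b2 and the symbols Atp5s and Atp5sl were named after their values were seen. The 21 alternatives varied the pseudocount, filter, scaling, limma options, a myeloid covariate and the libraries.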

Additional observations from a re-analysis of the deposited data

Results flagged for a closer look

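In 10 of 104 groups of 4 libraries, a library stood far from the other 3 of its group. The measure was the gap to its nearest neighbour over the group's range. Chance would mark about 5.2 if the groups were separate, but the same libraries supply them all. The 10 are therefore not read as an excess. KO library 4 was the high one in 5 of the 10. It had 374 TPM of Sdhb against 312 to 320 TPM in the other KO libraries, 542 TPM of Uqcr11 against 366 to 389 TPM, and 526 TPM of Atp5g3 against 402 to 415 TPM. It also had 98.5 TPM of Timm17a against 87.1 to 88.2 TPM, and a complex II sum of 773.9 TPM against 633 to 656 TPM. That sum includes Sdhb. KO library 2 was low in Ndufa4, with 625.5 TPM against 753 to 774 TPM in the other KO libraries. KO library 1 was low in the complex IV sum, with 7146 TPM against 8094 to 8248 TPM. WT library 8 was high in Ndufs6, with 153.5 TPM against 110.9 to 116 TPM in the other WT libraries. It was low in Polrmt, with 11.1 TPM against 24.3 to 26.0 TPM, and Cox6b2 was listed at 0 there against 1.80 to 2.03 TPM.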

How the results depend on the processing

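No paired analysis was possible because replicate numbers 1 to 4 occur only in KO and 6 to 9 only in WT cells. Without a known depth, low subunits such as Cox6a2 and Cox7a1 have no counting error to set beside them. Of the single-gene values under the 21 alternatives, 828 kept their direction and side of the limma threshold and 50 changed sign, none of which passed the threshold under either setting. The cause was not tested.

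Subunits above 0 numbered 37 of 78 with quantile normalization, 43 of 78 after removal of ribosomal and top genes, and 40 of 78 when KO libraries 3 and 4 were left out together with WT libraries 6 and 9 (both pairs). The median of all genes moved too, to -0.051, -0.075 and -0.11 from 0.041, and the subunits' median less that median was 0.042, 0.098 and 0.12, against 0.11 with all libraries rescaled alike. With quantile normalization the median log2 difference was -0.010 for complex I, -0.048 for II, -0.068 for III, 0.12 for IV and -0.021 for V. After the removal it was 0.00082 for complex I, -0.052 for II, -0.022 for III, 0.17 for IV and 0.023 for V. Without WT libraries 6 and 9 it was 0.0026 for complex III, 0.13 for IV and 0.034 for V. Without both pairs it was -0.0043 for complex I, -0.10 for II, 0.024 for III, 0.060 for IV and -0.022 for V. Genes past the threshold were 3 with all libraries, 10 when both pairs were left out, 5 when only the KO pair was and 5 when only the WT pair was. Leaving out single libraries gave 2 to 9, the highest without KO library 2, with 5 without KO library 1, and 0 to 1 subunits. The 1 was Cox7a1 without KO library 1, which entered through KO libraries alone with every WT library at 0, and is no test of the subunits.

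Values that changed sign with quantile normalization were -0.012 for Sdhb, -0.051 for Uqcr11, -0.016 for Cox4i1, -0.011 for Atp5h, -0.045 for Atp5l, -0.066 for Atp5g2, -0.076 for Atp5g3 and -0.10 for Cox6a1. After the removal they were -0.0013 for Uqcr11, -0.060 for Cox4i1, -0.034 for Atp5l, -0.026 for Atp5g2, -0.022 for Atp5g3 and -0.055 for Cox6a1. With the myeloid covariate they were 0.056 for Uqcrh, -0.017 for Uqcr11 and -0.015 for Cox6a1. Without KO libraries 3 and 4 they were 0.068 for Uqcrh, -0.029 for Uqcr11 and -0.033 for Cox6a1. Without WT libraries 6 and 9 they were -0.0046 for Sdhb, -0.074 for Uqcr11, -0.079 for Cox4i1, -0.078 for Atp5h, -0.074 for Atp5l, 0.13 for Atp5g1 and -0.15 for Cox6a1. Without both pairs they were -0.054 for Sdhb, -0.24 for Uqcr11, -0.11 for Cox4i1, -0.069 for Atp5j2, -0.14 for Atp5h, -0.093 for Atp5l, 0.089 for Atp5g1, -0.080 for Atp5g3, -0.26 for Cox6a1, -0.077 for Cox6b1, -0.023 for Fh1 and -0.097 for Atpif1. Leaving out single libraries turned the sign of Atp5g1 (-0.12 to 0.069), Cox6a1 (-0.00078 to 0.16), Cox6b2 (-0.29 to 0.52), Uqcr11 (-0.0014 to 0.24) and Uqcrh (-0.088 to 0.051).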
